A study of Canis lupus familiaris with 7 samples.

Results

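Matricellular proteins are secreted into the extracellular matrix but, unlike collagens, do not build its fibers; they bind matrix molecules, growth factors and cell surface receptors such as integrins and adjust how cells attach, move and respond to signals. Periostin (*POSTN*) is named for the periosteum, SPARC (osteonectin) is an abundant non-collagen protein of bone, the CCN family (*CYR61*, *CTGF*, *NOV*, *WISP1*, *WISP2*) shares a set of binding modules, tenascin-C (*TNC*) marks developing and wounded tissue, and the thrombospondins (*THBS1*, *THBS2*) bind latent TGF-beta or limit vessel growth. Expression of these 10 genes was followed in canine osteosarcoma (OSA) and bone. The members were taken by symbol from the table of gene expression, and all 10 were among its 24580 listed genes; all 10 were also among the 13507 genes that passed the filter on low values (a mean of 1 FPKM or more).

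RNA came from 4 samples of bone that looked non-malignant (N1, N3, N8 and N9, called non-tumor) and 3 samples of OSA tumor (T1, T3 and T10) of dogs, taken by veterinary surgeons at amputation or after euthanasia. Each sample was a piece of tissue with all its cells, the non-tumor bone was taken next to a tumor and is called matched, but no source used here states that N1 and T1, or N3 and T3, came from 1 dog, and breed, age, sex and treatment of the dogs are not given in the sources used here. Values are FPKM, sequenced fragments scaled by transcript length and by the mapped fragments of the library; how libraries were scaled to each other is not given in the sources used here, and summed FPKM ran from 539648 (N1) to 1752340 (N8). Fold changes are differences of the mean log2(FPKM + 1), tumor minus non-tumor, from limma fitted on all genes that passed the filter, and are given with their standard error (SE). Group means carry the SD over samples after the ± sign. Genes were called higher or lower when the log2 fold change was 1 or more in size and its unadjusted p below 0.05, limits taken from the methods of the study.

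Marker genes of other tissues differed between the samples. Sums over 9 listed skeletal muscle markers were 70.8 (N1), 1389 (N3), 67199.9 (N8) and 42573 FPKM (N9), against 3.33 to 7.07 in OSA tumor, and 8 of the 9 markers were lower in tumor; the sum for N9 holds *CKM*, a muscle enzyme, listed at 0 there and at 35044 FPKM in N8, which may be a failed estimate. Over 10 erythroid markers they were 6.998 (N1), 2942 (N3), 4498 (N8) and 261 FPKM (N9), against 3.72 to 73.4 in OSA tumor. Over 7 osteoblast markers they were 513 (N1), 258 (N3), 17.2 (N8) and 57.1 FPKM (N9), against 1089 (T1), 130 (T3) and 282 FPKM (T10). Single osteoblast markers did not all follow the sum: *BGLAP* was lowest in T10 (4.78 FPKM) and *PHEX* in T3 (0.241 FPKM). Sums over 9 listed chondrocyte markers were 310 (N1), 31.3 (N3), 3.21 (N8) and 9.81 FPKM (N9), against 898 (T1), 133 (T3) and 419 FPKM (T10). The number of fragments behind 1 FPKM, read from the smallest steps of the values, ran from 0.546 (N8) to 1.44 (T10) relative to N1. The methods of the study give only an approximate number of reads for all samples, and the depth of each sample is not given.

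In OSA tumor 2 of the 10 genes rose, *CYR61* and *WISP1*, and 0 fell. The same limits were passed by 3.28% of all genes tested in the higher (443 genes) and by 3.58% in the lower direction (483 genes); after scaling to equal sums these were 276 and 499 genes. The median log2 fold change was 1.36 over the 10 genes and -0.02 over all genes tested, and 8 of the 10 had a positive value, where 48.6% of all genes did. The median over the 10 genes was 0.795 without N8 and N9 and 0.773 in a fit of N1, T1, N3 and T3 with the shared number as a block. In bulk tissue, fewer cells that express a gene and less RNA of it per cell cannot be told apart. By limma 0 genes reached a Benjamini-Hochberg adjusted p under 0.05 over all genes tested, while 927 had an unadjusted p under 0.05. Adjusted p of the 10 genes ran from 0.693 to 0.985, so each of the calls below rests on an unadjusted p. A two-sided exact permutation test over the 35 splits of 7 samples into 4 and 3 cannot go below p = 0.0571.

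**Figure D1:**
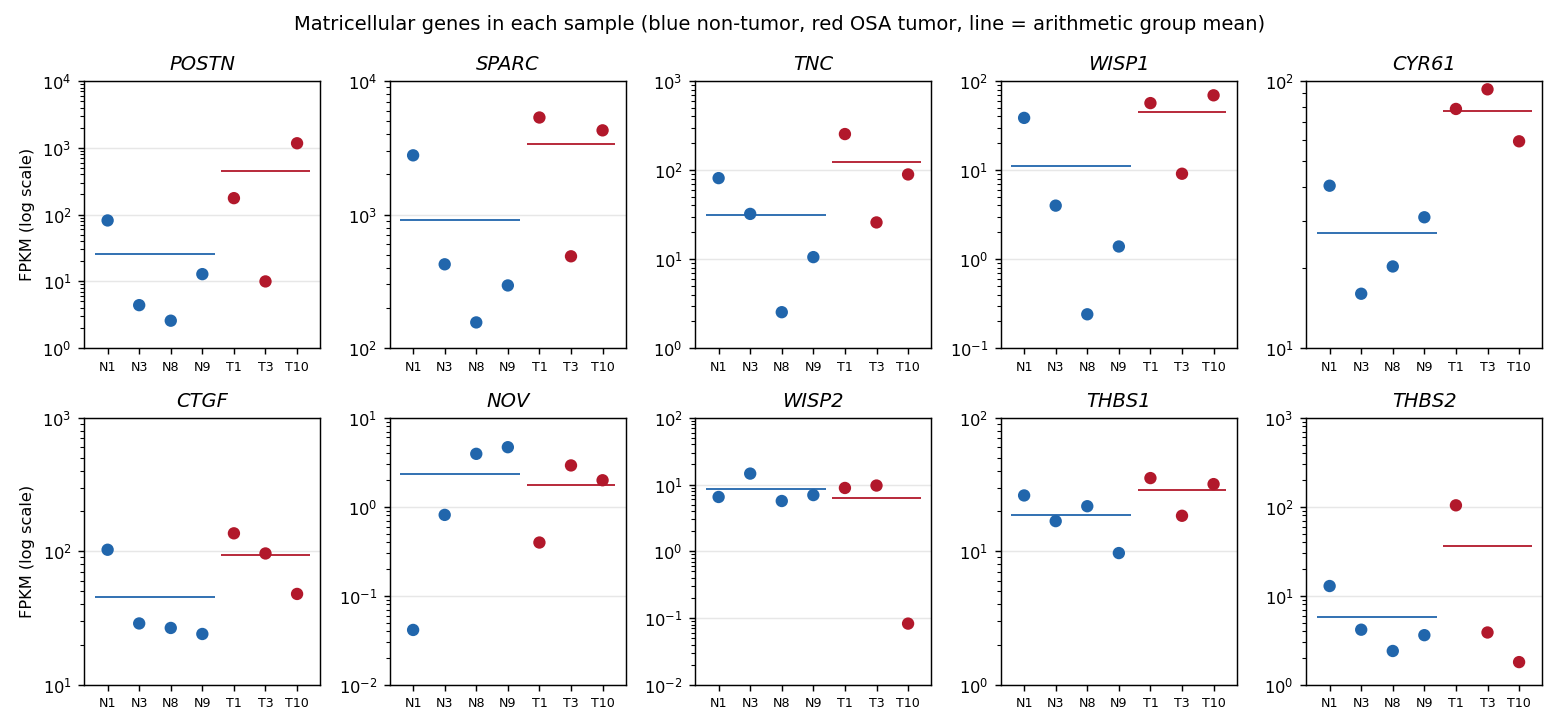
FPKM (log axes, a separate range for each gene) of the 10 matricellular genes in the 4 non-tumor samples (blue points) and 3 OSA tumor samples (red points); lines are arithmetic group means. *CYR61* alone has every tumor point above every non-tumor point, while N1 lies among or near the tumor samples in *POSTN*, *SPARC*, *TNC* and *WISP1*.

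The count of higher genes turned on single samples. Without N1, 6 of the 10 were higher (*POSTN*, *CTGF*, *CYR61*, *WISP1*, *TNC* and *SPARC*), where 6.24% of all genes tested were. Without T3 it was 5 (*POSTN*, *CYR61*, *WISP1*, *TNC* and *SPARC*), beside 3.05% of all genes. Leaving out N3, N8, N9, T1 or T10 left *CYR61* as the 1 gene past the limits, where 2.46%, 1.5%, 2.13%, 4.43% and 2.16% of all genes tested were higher, in that order. Without both N8 and N9, the samples high in muscle markers, *CYR61* was again the 1 gene, beside 0.622% of all genes tested.

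*CYR61* (ENSCAFG00000020276, CanFam3.1 chromosome 6 from 62443288 to 62446469) encodes CCN1, an early response protein that binds integrins and is a known target gene of the Hippo pathway coactivators YAP and TAZ. It was at 40.6 (N1), 16.0 (N3), 20.2 (N8) and 30.9 FPKM (N9), and at 78.6 (T1), 93.1 (T3) and 59.5 FPKM (T10). All 3 tumor samples lay above all 4 non-tumor samples, an order that 3.04% of all genes tested showed. Means were 77.1 ± 16.9 FPKM (n = 3) in OSA tumor and 26.9 ± 11.1 FPKM (n = 4) in non-tumor samples, a ratio of 2.86. Limma gave a log2 fold change of 1.55 (SE 0.48, 95% interval 0.46 to 2.64, unadjusted p = 0.0104, adjusted p = 0.693) and the exact permutation test its smallest p of 0.0571. The difference of the group means exceeded the SD of each group. Over all 19 alternative fits the log2 fold change lay between 1.34 and 1.77 and stayed past the limits. It was 1.53 (unadjusted p = 0.0425 from limma) without N8 and N9, the samples highest in muscle markers. N3, which stayed in that fit, had a muscle marker sum of 1389 FPKM. The part of muscle RNA in the difference was not tested.

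*WISP1* (ENSCAFG00000001133, chromosome 13 from 29648970 to 29684571) encodes CCN4, first described as a target of Wnt signalling and known to promote bone formation. Its values were 38.5 (N1), 3.99 (N3), 0.240 (N8) and 1.38 FPKM (N9), against 56.5 (T1), 9.09 (T3) and 69.1 FPKM (T10). T1 and T10 were above all non-tumor samples, but T3 was below N1, so the groups overlapped. *WISP1* was at 44.9 ± 31.7 FPKM (n = 3) in OSA tumor and 11.0 ± 18.4 FPKM (n = 4) in non-tumor samples, where N1 held 87.3% of the sum. By limma the log2 fold change was 2.81 (SE 1.15, 95% interval 0.21 to 5.40, unadjusted p = 0.0368, adjusted p = 0.693; exact permutation p = 0.114). This call was lost without N3, N8, N9, T1 or T10 (2.15 to 2.81) and was 3.81 without N1; without both N8 and N9 it was 1.29 and did not pass. With the number shared by N1 and T1, and by N3 and T3, as a fixed block, a fit of those 4 samples, it was 0.78 (unadjusted p = 0.182 from limma) and did not pass either.

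*POSTN* (ENSCAFG00000006073, chromosome 25 from 3167202 to 3209414) varied more between samples than any other of the 10 genes. It was at 81.7 (N1), 4.40 (N3), 2.57 (N8) and 12.8 FPKM (N9), and at 176 (T1), 9.97 (T3) and 1169.6 FPKM (T10). T10 and T1 exceeded every non-tumor sample, whereas T3 lay below N1 and N9. The highest sample was 454 times the lowest, and the range within OSA tumor alone was 117-fold, with 86.3% of the tumor sum in T10 and 80.5% of the non-tumor sum in N1. Means of 452 ± 627 FPKM (n = 3) and 25.4 ± 37.8 FPKM (n = 4) differed by a ratio of 17.8. The log2 fold change was 3.43 (SE 1.53, 95% interval -0.013 to 6.88) with an unadjusted p = 0.0507 and an adjusted p = 0.693 from limma, so *POSTN* missed the limits in this fit (exact permutation p = 0.171). The study used another test, Cuffdiff, on these samples and listed *POSTN* as higher in tumor. Its quantitative PCR on more samples also found higher *POSTN*. With limma *POSTN* passed in 9 of 19 alternative fits, at 4.35 without N1 and 5.22 without T3, and stood at 1.86 without T10. With the shared sample number as a fixed block, in N1, T1, N3 and T3, it was 1.06 (unadjusted p = 0.0899 from limma). Among all listed genes of a sample *POSTN* ranked 52 in T10, 323 in T1 and 730 in N1, but 10628 in N8.

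*SPARC* (ENSCAFG00000017855, chromosome 4 from 57632670 to 57716883, an interval that covers 1 other listed gene) encodes the collagen- and calcium-binding protein osteonectin. It had the highest FPKM of the 10 genes in each of the 7 samples, at 2777 (N1), 424 (N3), 156 (N8) and 295 FPKM (N9), and at 5332 (T1), 487 (T3) and 4273 FPKM (T10). It ranked 11 among all listed genes in T10, 12 in T1 and 18 in N1, and 657 in N8. T1 and T10 were the highest samples, N1 came next, and T3 was close to N3. Group means were 3364 ± 2547 FPKM (n = 3) in OSA tumor and 913 ± 1248 FPKM (n = 4) in non-tumor samples. The log2 fold change of 2.21 (SE 1.17, 95% interval -0.43 to 4.85, unadjusted p = 0.0915 from limma; exact permutation p = 0.114) did not pass. Without N1 it was 3.05 and without T3 3.30, and both of these passed; without N8 and N9 it was 1.04 and with the fixed block 0.57.

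*TNC* (ENSCAFG00000003426, chromosome 11 from 69077478 to 69169707), whose many-armed protein loosens cell adhesion, was at 81.2 (N1), 32.2 (N3), 2.53 (N8) and 10.5 FPKM (N9). In OSA tumor it was at 254 (T1), 25.8 (T3) and 89.3 FPKM (T10). Again T3 fell inside the non-tumor range, below N1 and N3, and N8 was the lowest sample. Group means of 123 ± 118 (n = 3 tumors) and 31.6 ± 35.3 FPKM (n = 4 non-tumor) had wide spreads. *TNC* had a log2 fold change of 2.22 (SE 1.10, 95% interval -0.25 to 4.69, unadjusted p = 0.0723 from limma; exact permutation p = 0.229). *TNC* passed at 2.94 without N1 and at 3.05 without T3, and was at 0.70 without N8 and N9 and 0.66 with the fixed block.

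*CTGF* (ENSCAFG00000029442, chromosome 1 from 25387130 to 25511127) encodes CCN2, a mediator of TGF-beta effects on matrix production and, like *CYR61*, a target gene of YAP and TAZ. Non-tumor samples were at 103 (N1), 28.8 (N3), 26.7 (N8) and 24.0 FPKM (N9), and tumor samples at 136 (T1), 96.3 (T3) and 47.9 FPKM (T10). N3, N8 and N9 lay close together below all tumor samples, while N1 was above T3 and T10. Means were 93.5 ± 44.2 FPKM (n = 3) and 45.5 ± 38.1 FPKM (n = 4). Limma gave *CTGF* a log2 fold change of 1.18 (SE 0.64, 95% interval -0.26 to 2.62, unadjusted p = 0.0962, exact permutation p = 0.171), and it passed the limits, at 1.66, only in the fit without N1. Without N8 and N9 the *CTGF* value was 0.64 (unadjusted p = 0.428 from limma).

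**Figure D2:**
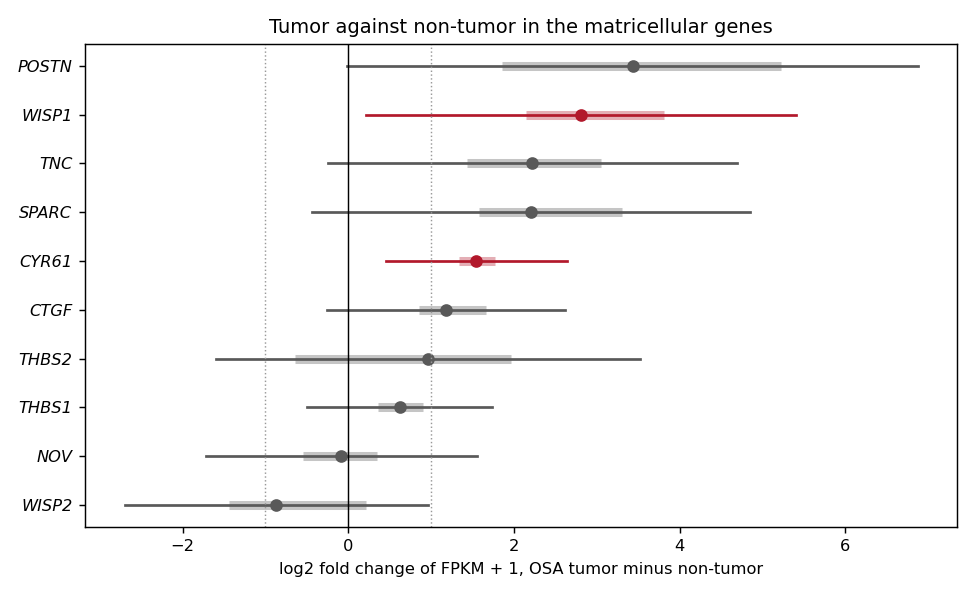
Log2 fold change of FPKM + 1, OSA tumor minus non-tumor, for the 10 genes from limma (points), with 95% intervals (thin lines) and the range of the 7 fits that each left out 1 sample (thick bars); dotted lines mark changes of 1 and -1. Red marks *CYR61* and *WISP1*, which passed the limits, and the range for *CYR61*, from 1.34 to 1.77, is narrow beside those of *POSTN* and *THBS2*.

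The remaining CCN genes did not pass the limits. *NOV* (ENSCAFG00000030440, chromosome 13 from 18507548 to 18517419), encoding CCN3, which opposes CCN2 in several settings, was at 0.0413 (N1), 0.810 (N3), 3.93 (N8) and 4.67 FPKM (N9), and at 0.396 (T1), 2.91 (T3) and 1.98 FPKM (T10). N1 and T1, the samples with the most *CTGF*, had the least *NOV*. Its group means, 1.76 ± 1.27 (n = 3 tumors) and 2.36 ± 2.28 FPKM (n = 4 non-tumor), lay within each other's SD. The log2 fold change was -0.09 (95% interval -1.72 to 1.55, unadjusted p = 0.907 from limma; exact permutation p = 0.914), and its sign changed in 10 of 19 alternative fits, scaling to equal sums and quantile normalization included. *WISP2* (ENSCAFG00000009519, chromosome 24 from 32162033 to 32174638) encodes CCN5, the family member without the C-terminal module. It stood at 6.50 (N1), 14.6 (N3), 5.66 (N8), 6.94 (N9), 8.88 (T1) and 9.65 FPKM (T3), but at 0.0825 in T10. T10 thus stood apart from 6 samples that spanned a narrow range, in the tumor with the most *POSTN*. Tumor samples averaged 6.20 ± 5.31 (n = 3) and the others 8.42 ± 4.13 FPKM (n = 4). The log2 fold change of -0.87 (95% interval -2.70 to 0.96, unadjusted p = 0.310 from limma; exact permutation p = 0.629) turned to 0.21 without T10 and was -0.08 with the fixed block.

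Of the thrombospondins, *THBS1* (ENSCAFG00000008704, chromosome 30 from 6770135 to 6785062), an activator of latent TGF-beta that platelets store, had the smallest spread of the 10 genes. It was at 26.2 (N1), 16.8 (N3), 21.7 (N8) and 9.69 FPKM (N9), against 35.3 (T1), 18.4 (T3) and 31.8 FPKM (T10), a 3.64-fold range over 7 samples. T1 and T10 were the highest, and T3 lay within the non-tumor range. Means were 28.5 ± 8.91 FPKM (n = 3) and 18.6 ± 7.07 FPKM (n = 4), a log2 fold change of 0.62 (95% interval -0.50 to 1.74, unadjusted p = 0.241 from limma; exact permutation p = 0.171). This value was 0.36 without N9, 0.37 without N8 and N9 and 0.27 with the fixed block. Summed over 6 listed platelet and megakaryocyte markers, N3 had 101 and N8 163 FPKM, with 2.55 to 31.5 elsewhere; the part of platelets in the level of *THBS1* was not tested.

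*THBS2* (ENSCAFG00000000874, chromosome 1 from 56400874 to 56427286) encodes an inhibitor of vessel growth that also affects collagen fibril assembly. It stood at 104 FPKM in T1, at 3.87 in T3 and at 1.80 in T10, and at 12.9 (N1), 4.16 (N3), 2.40 (N8) and 3.61 FPKM (N9). T1 alone held 94.8% of the tumor sum, and T10 was below every non-tumor sample. This gave a tumor mean of 36.5 ± 58.3 (n = 3) beside 5.76 ± 4.80 FPKM (n = 4). For *THBS2* the log2 fold change was 0.96 (95% interval -1.60 to 3.52, unadjusted p = 0.420 from limma; exact permutation p = 0.743) and became -0.65 without T1.

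By the median FPKM over the 7 samples the order was *SPARC* (487), *CTGF* (47.9), *CYR61* (40.6), *TNC* (32.2), *THBS1* (21.7), *POSTN* (12.8), *WISP1* (9.09), *WISP2* (6.94), *THBS2* (3.87) and *NOV* (1.98). Only 2 neighbours in this order kept their places in 7 of 7 samples, *SPARC* above *CTGF* and *POSTN* above *WISP1*. *TNC* was above *THBS1* in 6 samples and *CTGF* above *CYR61* in 5. The remaining neighbours held their order in 3 or 4 samples, so that their levels did not differ beyond the spread between samples. Within the groups the order of medians differed: *POSTN* came after *SPARC* in OSA tumor (176 FPKM, ahead of *CTGF* at 96.3) but followed *THBS1* in non-tumor samples (8.61 FPKM against 19.3). *WISP1* was above *THBS1* and *WISP2* in OSA tumor (56.5 against 31.8 and 8.88 FPKM) and below both in non-tumor samples (2.69 FPKM).

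Ratios of 2 members within a sample, chosen after their values were seen and given without a test, showed how unevenly the genes moved. *POSTN* was at 0.274 of *SPARC* in T10 but between 0.0104 and 0.0435 in the other 6 samples. *THBS2* was at 2.94 times *THBS1* in T1 and at most 0.492 times elsewhere. In contrast, *TNC* to *SPARC* stayed between 0.0163 and 0.0759, and *CTGF* to *CYR61* between 0.777 and 2.53. *WISP2* was at 0.160 of *CYR61* or more in the 4 non-tumor samples and at 0.113 or less in the 3 tumor samples, with T10 at 0.00139.

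**Figure D3:**
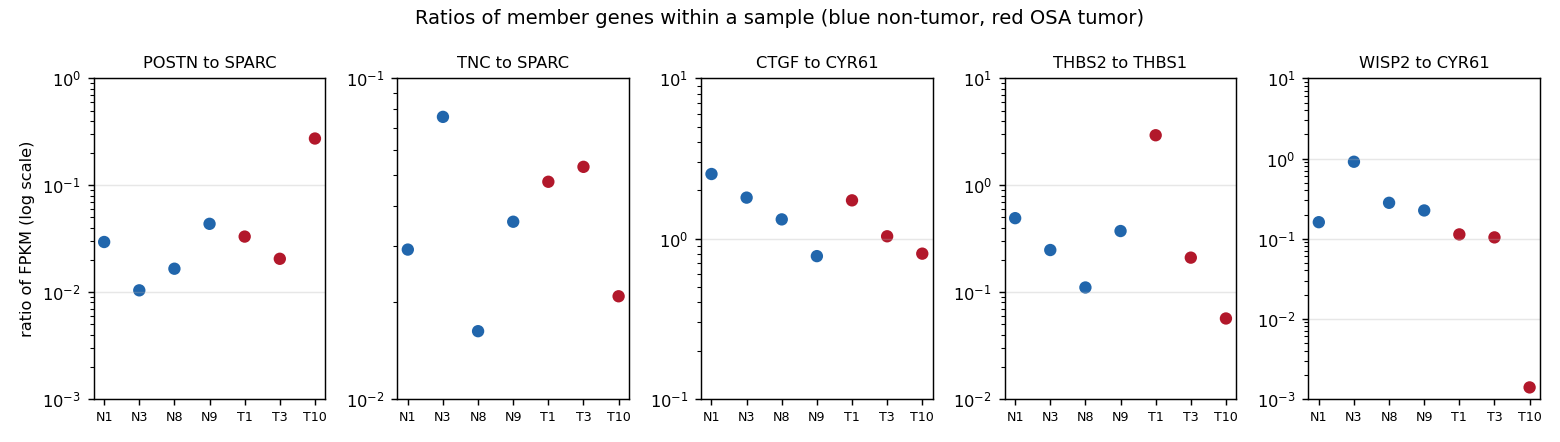
Ratios of FPKM (log axes) of 5 pairs of genes within each of the 4 non-tumor (blue) and 3 OSA tumor (red) samples. T10 stands apart in *POSTN* to *SPARC* (0.274) and *WISP2* to *CYR61* (0.00139), and T1 in *THBS2* to *THBS1* (2.94).

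Several of the genes shared an order of samples that the groups do not give. In *POSTN*, *WISP1*, *TNC*, *SPARC* and *THBS1* the 3 highest samples were N1, T1 and T10, which was so in 7.24% of all genes tested. N1 was the highest non-tumor sample in 8 of the 10 genes (31.2% of all genes) and N8 the lowest in 6 (23.8%). T3 was the lowest tumor sample in 5 genes (33.9% of all). T1 exceeded N1 in 10 of 10 genes (51.2% of all) and T3 exceeded N3 in 7 (48.5% of all). The sums of osteoblast markers and of chondrocyte markers, listed above, were likewise highest in T1, N1 and T10. Collagen *COL1A2* was at 5931 (N1), 450 (N3), 46.9 (N8) and 148 FPKM (N9), and at 9139 (T1), 342 (T3) and 2285 FPKM (T10), so N1, T1 and T10 were again the 3 highest; *COL1A1* was listed at 0 in T1, where a failed estimate and absent RNA cannot be told apart. The part of these differences in composition in the fold changes was not tested beyond the fits that left samples out.

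**Figure D4:**
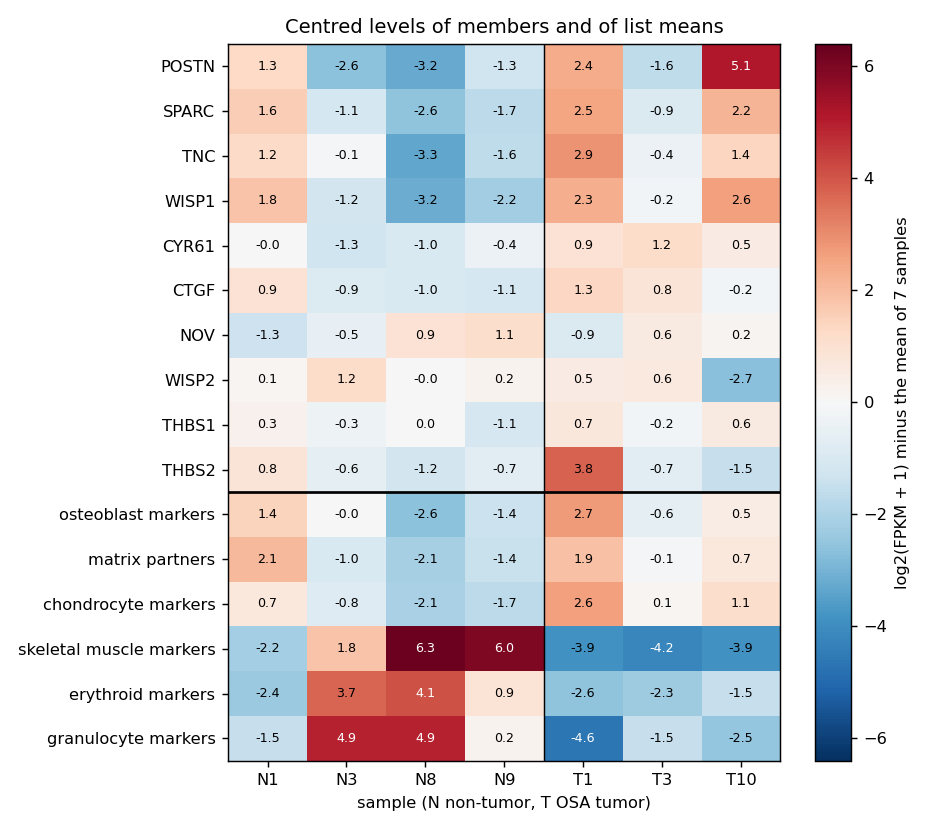
Log2(FPKM + 1) minus the mean of the 7 samples (color and printed value) for the 10 genes, above the black line, and for the mean over 6 gene lists, below it; columns are the 4 non-tumor and 3 OSA tumor samples. *POSTN*, *SPARC*, *TNC* and *WISP1* are above their means in N1, T1 and T10, as is the osteoblast list, while the muscle list is highest in N8 and N9.

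For each gene the 3 profiles most like it were sought among all genes tested with a symbol, by the root mean square difference of log2(FPKM + 1) over the 7 samples after centring. Nearest to *POSTN* were *COL12A1* (0.61), *ASPN* (0.84) and *TNN* (0.95), a collagen, a small leucine-rich proteoglycan and a tenascin of bone. *COL12A1*, for one, was at 346 FPKM in T10, 153 in T1 and 46.2 in N1 and at 5.68 or less in the other samples. The 3 nearest to *TNC* were *KLK4* (0.32), *MMP2* (0.45) and *ADAM12* (0.62), all proteases. *SPARC* had *NCAD* (0.28), *NOTUM* (0.34) and *SH3PXD2B* (0.41), and *WISP1* had *NDNF* (0.36), *CADM1* (0.44) and *SPARC* itself (0.48), the closest pair among the 10 genes, followed by *CTGF* and *CYR61* (0.58) and *TNC* and *SPARC* (0.64). For *CYR61* they were *CTSL1* (0.25), *WWTR1* (0.25), which encodes TAZ, and *LARP6* (0.26). The neighbours of *THBS2*, *SIGLEC15* (0.40), *COL9A3* (0.43) and *WNT16* (0.43), were genes with their highest value in T1. *CTGF* was nearest to *CORO2B*, *MMP17* and *ZNF618* (0.20 to 0.21), *NOV* to *ETF1*, *OPTN* and *NDUFA6* (0.17 to 0.20), *WISP2* to *PPAP2B*, *C1S* and *GALT* (0.43 to 0.46), and *THBS1* to *PORCN*, *SNX8* and *PLAC1* (0.20 to 0.22).

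Other genes of the matricellular families were mostly not past the limits. Of 17 tested, 2 were higher, 1 was lower and 14 did not pass, with a median log2 fold change of 0.95. Beside this and every other gene list, 3.28% of all genes tested were higher and 3.58% lower, with a median of -0.02. The counts in the lists were not tested against these shares. *FSTL1*, a secreted relative of SPARC, was at 166 (N1), 119 (N3), 50.2 (N8) and 54.9 FPKM (N9) and at 471 (T1), 236 (T3) and 652 FPKM (T10). The groups of *FSTL1* did not overlap (log2 fold change 2.26, SE 0.63, unadjusted p = 0.00556 from limma). *FSTL1* did not pass with the fixed block over samples 1 and 3 (1.24, unadjusted p = 0.155) or without N8 and N9 (1.56, unadjusted p = 0.0585). *FBLN1*, a fibulin that binds fibronectin, had means of 278 ± 165 FPKM (n = 3) and 69.0 ± 72.9 FPKM (n = 4) and a log2 fold change of 2.25. The groups overlapped, with N1 (177 FPKM) above T10 (92.7 FPKM). The *FBLN1* call was lost without N8, N9, T1 or T3 (lowest 1.84, without T3), and without both N8 and N9 the value was 1.29 (unadjusted p = 0.182 from limma); it did not pass with the fixed block (1.95). Thrombospondin-4 (*THBS4*), which is found in muscle and tendon, went the opposite way, at 4.74 (N1), 46.6 (N3), 105 (N8) and 127 FPKM (N9) and at 0.285 (T1), 16.2 (T3) and 0.772 FPKM (T10) (log2 fold change -3.69). Its order among the non-tumor samples put N8 and N9, the samples with the most muscle marker RNA, highest. Without N8 and N9 the log2 fold change of *THBS4* was -2.28 (unadjusted p = 0.115 from limma) and the call was lost, as it was without T1 (-2.99) or T10 (-3.22).

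Among 15 tested cell surface receptors of these proteins, 2 were higher and 0 lower, with a median log2 fold change of 0.44. They were *ITGAV* (1.42) and *ITGB1* (1.49), the chains of integrins that bind periostin, tenascin-C and CCN proteins. *ITGB1* was at 105 ± 7.28 FPKM (n = 4) in non-tumor samples and at 145 (T1), 236 (T3) and 768 FPKM (T10); its log2 fold change was 0.81 without T10, and it passed in 10 of 19 alternative fits, of the fits without 1 sample only in that without T1. *ITGAV* passed in 12 of 19 and was lost without N3, N8, T1 or T10 (1.10 to 1.31). With the fixed block neither receptor passed (*ITGAV* 0.83, *ITGB1* 0.82). Without both N8 and N9 neither passed either (*ITGAV* 1.11, unadjusted p = 0.154, and *ITGB1* 1.51, unadjusted p = 0.102, from limma). *SDC4*, a syndecan, was at 17.0 to 40.6 FPKM in non-tumor and 32.3 to 145 in tumor samples. *CD36*, a thrombospondin receptor of fat cells, macrophages and vessels, ranged from 30.5 to 508 FPKM in non-tumor and from 24.4 to 89.6 in tumor samples, and neither gene passed.

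Matrix molecules that bind matricellular proteins, with enzymes that process matrix, gave 2 higher and 0 lower genes of 12 tested and a median log2 fold change of 1.70. Fibronectin (*FN1*) was at 116 (N1), 43.4 (N3), 15.0 (N8) and 26.3 FPKM (N9) and at 336 (T1), 178 (T3) and 230 FPKM (T10), without overlap (log2 fold change 2.63, SE 0.69, unadjusted p = 0.00388 from limma). Like *CYR61*, it passed in all 19 alternative fits, at 1.74 to 3.17. Lysyl oxidase (*LOX*), which crosslinks collagen, rose by 2.29 on this scale, but its groups overlapped, with T3 (13.0 FPKM) below N1 (13.3 FPKM). Without N8 and N9 *LOX* was at 1.81 (unadjusted p = 0.0540 from limma), no longer past the limits.

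In the Hippo and SRF list, which holds regulators and targets that share transcriptional control with *CYR61* and *CTGF*, 2 of 16 tested genes were higher, 1 was lower, and the median log2 fold change was -0.06. *WWTR1* was at 16.2 (N1), 4.90 (N3), 4.78 (N8) and 11.6 FPKM (N9) and at 23.5 (T1), 32.4 (T3) and 28.0 FPKM (T10). The groups of *WWTR1* did not overlap (log2 fold change 1.63, SE 0.53, unadjusted p = 0.0123 from limma), and the call was lost with the fixed block (1.51, unadjusted p = 0.0561). *FHL2*, a LIM-only cofactor, was the other higher gene (1.43), a call lost without N1, N3, T3 or T10 (1.11 to 1.30), while *YAP1* was at 15.2 to 71.2 FPKM in non-tumor and 53.4 to 72.8 in tumor samples and did not pass. *ANKRD1*, a YAP target that is also a muscle gene, was lower (-4.72), with 839.5 FPKM in N9, 133 in N8, 5.22 in N3 and at most 0.171 in the other samples. Without N8 and N9 *ANKRD1* was at -1.23 (unadjusted p = 0.207 from limma) and did not pass, and the call was also lost without N8, N9, T1, T3 or T10, each left out alone (-4.75 to -3.12), and with the fixed block (-1.26). Of 9 tested TGF-beta genes, 2 were higher, *SMAD2* (1.30) and *SKIL* (1.20), and 0 lower, beside 3.28% and 3.58% of all genes tested. The median of this list was 0.73. The calls passed in 10 (*SMAD2*) and 12 (*SKIL*) of 19 alternative fits. Both were lost without N3, N8, T3 or T10, *SMAD2* also without N9, and both with the fixed block (0.46 and 0.72). Both were also lost without N8 and N9 together, where *SMAD2* was at 0.80 (unadjusted p = 0.229 from limma). *TGFB1*, an inducer of *POSTN*, *CTGF* and *TNC*, ran from 5.96 to 113 FPKM in non-tumor and from 16.0 to 174 FPKM in tumor samples, highest in T1 and N1.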

How the data were processed

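After trimming (Trim Galore) and alignment by Tophat2 to CanFam3.1 (Ensembl iGenomes annotation), the authors deposited an FPKM value per gene and sample from Cufflinks/Cuffdiff; versions and scaling between libraries are not given in the sources used here. All 7 sample columns were used, and 0 were left unused. In the authors' comparison table (group FPKM, log2 fold changes, statistics, p-values and q-values) the gene intervals alone were read, with 1 added to each start. Values were taken as log2(FPKM + 1), filtered at a mean of at least 1 FPKM and fitted without pairing by limma 3.58.1 (R 4.3.3, mean-variance trend), a fit tested on simulated data. Permutation tests used Python 3.11.15 with scipy 1.17.1, figures matplotlib 3.10.9. The labels do not say which samples share a dog, so p-values measure the spread between these samples. Members and lists were chosen with earlier results of these data known. Named genes were the 10 members, list genes past the limits with the smallest p (up to 3 in each direction) and the 3 most alike profiles per member; other genes were chosen after their values were seen. Besides 5 pathway lists, 14 marker lists were counted, and besides skeletal muscle they gave these numbers of genes lower and higher of those tested: smooth muscle 1 and 0 of 5, endothelial 4 and 0 of 7, macrophage 0 and 0 of 7, osteoclast 0 and 0 of 6, megakaryocyte and platelet 0 and 0 of 5, granulocyte 5 and 0 of 6, adipocyte 3 and 0 of 4, fibroblast 2 and 0 of 8, tendon 0 and 0 of 3, cell cycle 0 and 0 of 9, chondrocyte 0 and 3 of 7, osteoblast 0 and 2 of 7, and erythroid 7 and 0 of 10. Alternatives were other pseudocounts, filters, scalings, no trend, sample weights, replicate blocks and leaving samples out; the fit without N8 and N9 was added after seeing the data. No protein or promoter sequences were used here.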

Additional observations from a re-analysis of the deposited data

Results flagged for a closer look

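One of the 29 genes and gene lists examined in the 4 non-tumor samples had a sample far from the others. In *CTGF*, the gap between N1 and the next sample took up 0.877 of the whole range on the log2(FPKM + 1) scale, above the 95% critical value of Dixon's test for 4 samples, which chance passes in about 1 in 20 groups. N1 was at 103 FPKM and N3, N8 and N9 between 24.0 and 28.8; the cause was not tested.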

How the results depend on the processing

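The count of members past the limits was 2 in the reported fit. It was 1 without the filter, 5 with sample weights, 1 with the fixed replicate block over the samples numbered 1 and 3, 1 without N8 and N9, 3 (with *POSTN*) with either other pseudocount, the filter on 3 samples and each of the scalings to equal sums, by the median ratio and by quantiles, and 1 to 6 with a single sample left out. Over all genes tested the 926 genes became 1857 with sample weights, 407 with the fixed block, 209 without N8 and N9, and 362 (without N8) to 2011 (without N1) with 1 sample left out. The 12 pathway list calls, counted together, became 6 with the fixed block, 3 without N8 and N9, and 6 to 21 with 1 sample left out. The cause of these shifts was not tested. With the shared sample number as a random replicate block, 2 members passed, and *WISP1* was at 2.12; with it fixed, *WISP1* was at 0.78 and did not pass. *NOV* changed sign with pseudocounts of 0.1 (0.22) and 0.01 (0.51), equal sums (0.27), quantile normalization (0.051), the fixed (0.77) and random block (0.22), without N8 (0.20), N9 (0.27) or T1 (0.34), and without N8 and N9 (0.89). With 1 sample left out *NOV* ran from -0.54 to 0.34, *WISP2* from -1.44 to 0.21 (without T10) and *THBS2* from -0.65 (without T1) to 1.96. *POSTN*, *CTGF*, *CYR61*, *WISP1*, *TNC*, *SPARC* and *THBS1* kept a positive sign in all 19 alternatives. Scaling to equal sums moved the median log2 fold change of all genes from -0.02 to 0.12, and the share of higher among called genes from 443 of 926 to 276 higher against 499 lower. The table gives no counts, so low values such as *NOV* in N1 carry no interval.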

Other observations

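T10 combined the highest listed values of some matrix genes with very low listed values of others, as seen after the values were known. For the low values a failed estimate and a low RNA level cannot be told apart. Decorin (*DCN*) was at 3270 FPKM and lumican (*LUM*) at 3925 FPKM in T10, each the highest of the 7 samples, as *POSTN* was. In the same sample the fibrillar collagens *COL3A1* and *COL5A2* were at 1.14 and 2.16 FPKM, the lowest of the 7 samples, beside *WISP2* at 0.0825 FPKM, whereas *COL1A2* (2285 FPKM), *COL1A1* (652 FPKM) and *COL5A1* (60.5 FPKM) had T10 among their 3 highest samples. In T1 *COL3A1* was at 2353 FPKM and *COL5A2* at 793 FPKM.

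T1, N1 and T10 shared other high values. *TNN*, a tenascin of bone, was at 142 FPKM in T1, 60.8 in N1 and 211 in T10 and at 7.38 or less in the other samples. Bone sialoprotein (*IBSP*) was at 1153 FPKM in T1, 488 in N1 and 224 in T10, and between 3.35 and 90.9 FPKM in the others. Osteopontin (*SPP1*), in contrast, was as high in T3 (1448 FPKM) as in T1 (1448 FPKM), and at 930 FPKM in N3.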
